A study of Mus musculus with 16 samples.

Results

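The Hedgehog genes described here are the 3 ligand genes *Shh*, *Ihh* and *Dhh*, the receptor gene *Ptch1*, the signal transducer gene *Smo*, the genes of the transcription factors *Gli1*, *Gli2* and *Gli3*, and the inhibitor gene *Hhip*. They were taken by name as core genes of the pathway, with earlier results of these data known. All 9 were found among the 31274 genes of the expression table. RNA was measured in seminal vesicles (SVs) of C57BL/6 mice at week 5, around puberty, in 4 groups of 4 samples each, 16 samples in all. WT-veh mice were wild type and received corn oil by subcutaneous injection on postnatal days 1 to 5. WT-DES mice were wild type and received the synthetic oestrogen diethylstilbestrol (DES) in corn oil on the same days, at 2 µg per pup each day. αERKO-veh and αERKO-DES mice carried a disrupted oestrogen receptor α gene (*Esr1*) in every cell and received corn oil or DES on the same schedule. Per the study's methods, wild-type pups came from purchased pregnant females and αERKO pups from breeding of heterozygous mice. Genotype and source of the mice therefore cannot be told apart in any comparison between genotypes, the interaction included. The study's methods describe RNA from individual mice in 3 of the groups and from 3 pools of several mice in WT-DES. How the 4 WT-DES samples relate to these pools is not given, so they may not be 4 separate pools, and p-values measure only the spread between these samples.

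Hedgehog ligands are secreted proteins that are made mostly by epithelium in the developing urogenital tract and received by the surrounding mesenchyme. Without ligand, PTCH1 keeps SMO inactive, and with ligand SMO becomes active at the primary cilium and the GLI factors turn on target genes, which include *Ptch1*, *Gli1* and *Hhip* themselves. HHIP binds the ligands at the cell surface, and PTCH1 and HHIP thereby restrain the signal. In male accessory glands the pathway is known for its part in duct budding and branching.

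The values are FPKM, counts of sequenced fragments scaled by transcript length and by the library's total, so that levels can be set beside each other between genes and between samples. Both uses are rough, because sums of FPKM differed between groups and changes correlated with transcript length, as given below. Changes are differences in log2(FPKM + 1) from limma, fitted over the 15988 genes whose mean FPKM was above 1 in at least 1 group, and they understate the change of genes with low FPKM. A gene is said to have risen, fallen or been called when its adjusted p was at most 0.05, its ratio of group means was at least 1.5 and its mean was above 1 in 1 of the groups compared. *Ihh* and *Gli2* had a mean above 1 in WT-DES alone, so both entered the test through that group. Sums of FPKM over all genes ran from 375207 to 652708 per sample and were lowest in the 4 WT-DES samples, and the number of reads behind them is unknown.

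The promoters of *Smo*, *Gli2* and *Hhip* are shown because these genes differ in the response to DES described next: *Smo* rose with the smallest error, *Gli2* rose by the largest ratio and *Hhip* did not pass the test. Each is the 250 bases before a RefSeq start site in the GRCm38.p6 build, read 5′ to 3′ on the strand of the gene, with GC boxes (GGGCGG on either strand) in capitals. The *Smo* window lies at chr6:29735247-29735496 on the plus strand, the *Gli2* window at chr1:119053620-119053869 on the minus strand and the *Hhip* window at chr8:80058009-80058258 on the minus strand.
Smo: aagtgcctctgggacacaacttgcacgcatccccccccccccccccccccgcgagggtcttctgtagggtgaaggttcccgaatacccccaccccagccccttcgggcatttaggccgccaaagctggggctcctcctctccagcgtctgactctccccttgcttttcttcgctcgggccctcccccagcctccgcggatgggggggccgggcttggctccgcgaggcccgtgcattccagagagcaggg
Gli2: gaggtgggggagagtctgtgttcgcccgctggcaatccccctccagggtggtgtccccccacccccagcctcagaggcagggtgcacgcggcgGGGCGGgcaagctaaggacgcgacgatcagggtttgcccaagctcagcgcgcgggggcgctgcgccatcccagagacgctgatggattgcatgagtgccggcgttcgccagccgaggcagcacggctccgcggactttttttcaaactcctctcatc
Hhip: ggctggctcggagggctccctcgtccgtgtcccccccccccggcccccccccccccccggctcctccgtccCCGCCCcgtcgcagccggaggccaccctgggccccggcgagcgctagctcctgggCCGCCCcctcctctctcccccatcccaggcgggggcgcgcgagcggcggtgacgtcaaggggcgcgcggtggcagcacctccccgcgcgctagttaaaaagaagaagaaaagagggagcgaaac
The *Smo* window held no GC box, the *Gli2* window 1 and the *Hhip* window 2, and 32.7% of the 32851 RefSeq windows of this length held at least 1. GC content was 68.4% in the *Smo* window, 67.2% in *Gli2* and 76.0% in *Hhip*, against a median of 52.4% over all windows. The core GLI site (GACCACCCA on either strand) was in none of the windows of the 7 members with an entry, which leaves out *Shh* and *Gli1*, and in 0.225% of all windows. The palindromic oestrogen response element was in none of the 7 either, and in 0.0639% of all windows. Letters in these windows describe the sequence only.

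*Esr1*, the targeted gene, checked the labels. In wild type its FPKM ran from 2.81 to 4.55 after vehicle and from 8.74 to 19.64 after DES. In αERKO it ran from 1.30 to 1.75 and from 0.91 to 1.64, so neither αERKO group overlapped either WT group. The remaining αERKO signal is a sum over the whole gene and does not show the disrupted part.

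In wild-type SVs, 7 of the 9 Hedgehog genes were higher after neonatal DES than after vehicle, and none was lower. They were the ligands *Shh* and *Dhh*, the receptor pair *Ptch1* and *Smo*, and all of *Gli1*, *Gli2* and *Gli3*, with ratios of means from 1.89 to 6.74. *Ihh* and *Hhip* did not pass the test. Leaving aside *Ihh* and *Gli2*, which were tested only because of their WT-DES level, 6 of 7 were called, and likewise 6 of 7 for the interaction and 7 of 7 for αERKO-DES against WT-DES in the comparisons further on. The change in wild type was widespread, with 52.7% of all tested genes called and 28.9% called higher, so the count of 7 has to be read against that background. The median change of the 9 genes was 1.06 on the log2 scale, beside -0.0094 over all genes tested. The WT groups did not overlap for the same 7 genes, as was the case for 32.7% of all tested genes in the upward direction.

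**Figure D1:**
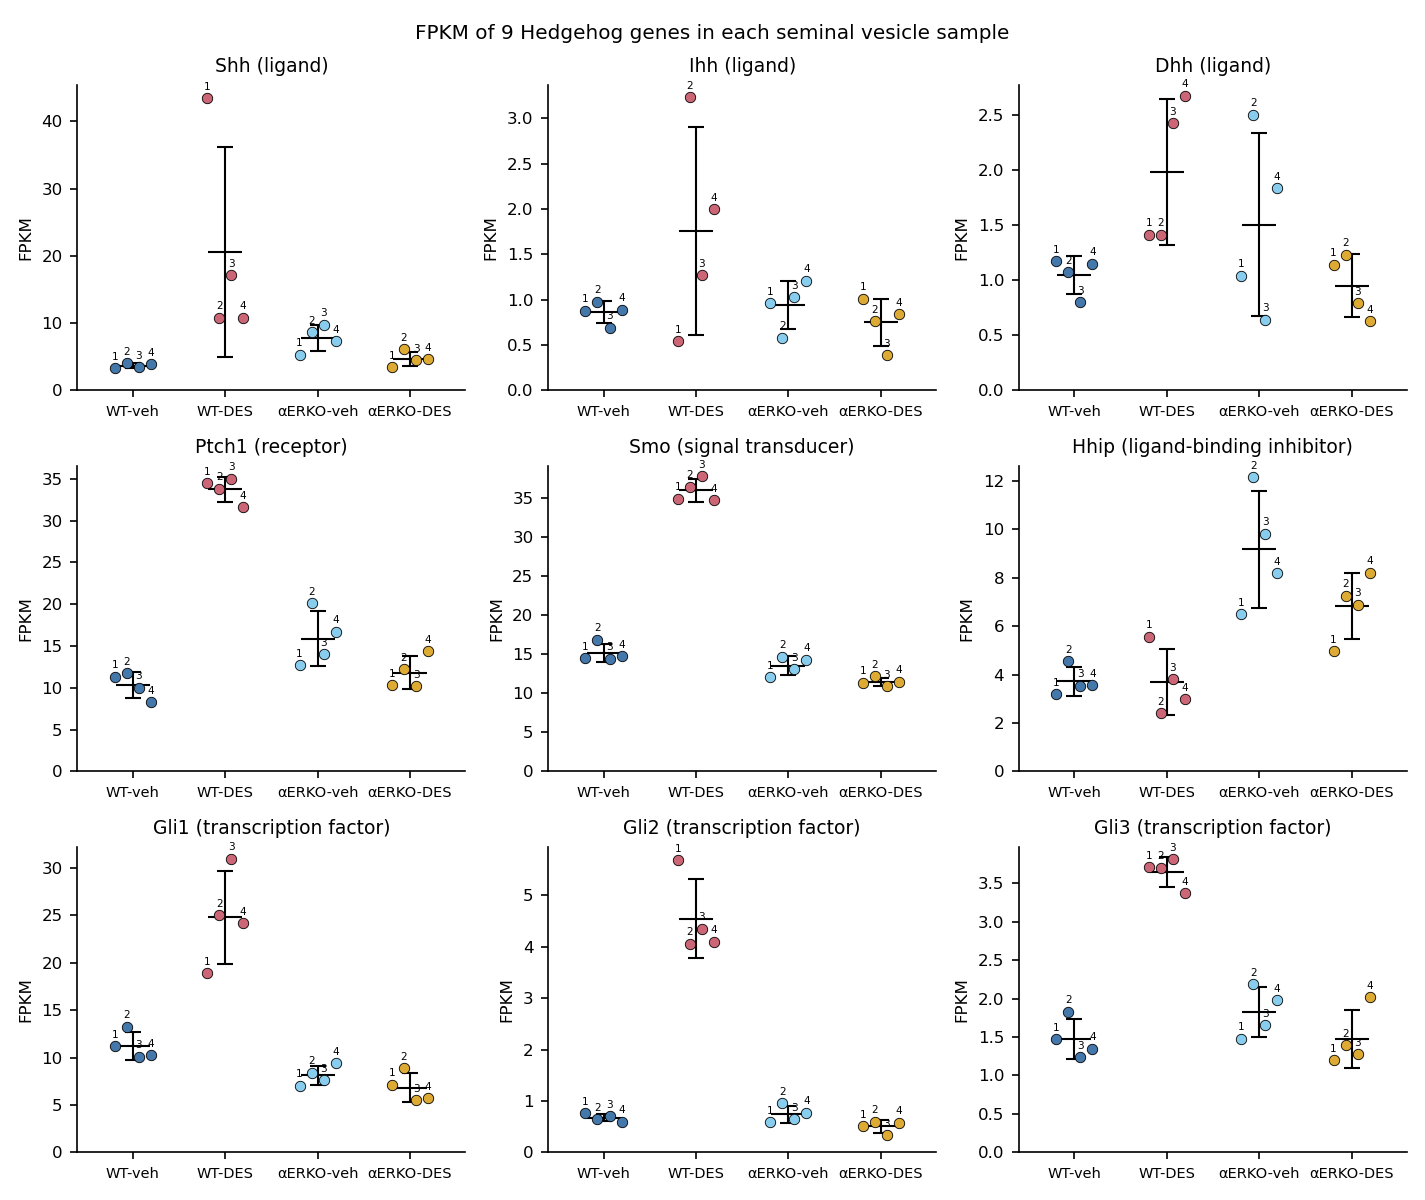
FPKM of each Hedgehog gene (linear axes from 0) in the 4 samples of each group, with the sample number above each point and bars for the mean ± SD. The WT-DES points lie above all other groups for *Ptch1* (31.60 to 35.03), *Smo*, *Gli1*, *Gli2* and *Gli3*, while *Hhip* is highest in αERKO-veh (6.51 to 12.15).

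*Shh* (chr5:28456815-28467256, minus strand, GRCm38) encodes Sonic hedgehog, the main ligand of epithelial buds. Its FPKM was 3.30, 4.07, 3.46 and 3.90 in WT-veh samples 1 to 4, and 43.48, 10.82, 17.14 and 10.84 in WT-DES samples 1 to 4. Every WT-DES sample was above every WT-veh sample, and sample 1 was far above the other WT-DES samples. *Shh* rose by 1.97 ± 0.32 (SE) on the log2 scale, a ratio of 5.59 (limma adjusted p = 6.29e-05). Without WT-DES sample 1 the ratio was 3.51 and the log2 change 1.55, with an adjusted p of 6.49e-06. In WT-DES sample 1 the mean of 8 smooth muscle markers was 8.20 on the log2(FPKM + 1) scale, against 5.96 to 6.65 in the other WT-DES samples, and the part of this in the *Shh* value was not tested. The SV is a whole tissue here, so for this and every gene below more RNA per cell and a larger share of the cells that make it cannot be told apart.

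*Ihh* (chr1:74945315-74951672, minus strand) encodes Indian hedgehog, best known from growing cartilage and gut. Its FPKM was 0.88, 0.98, 0.69 and 0.89 in WT-veh, and 0.54, 3.23, 1.27 and 2.00 in WT-DES. WT-DES sample 1 was below all WT-veh samples and the other 3 were above them, so the groups overlapped. The log2 change was 0.47 ± 0.23 and did not pass the test (limma adjusted p = 0.0791), with a 95% interval from -0.02 to 0.97. Without WT-DES sample 1 it was 0.72 with an adjusted p of 0.0029, and this sample was the highest for *Shh* and lowest for *Ihh* in its group. *Ihh* was also called with all samples kept when these were weighted by their fit (0.64, adjusted p = 0.00456), rescaled to equal totals without the 20 most abundant genes (0.72, adjusted p = 0.0185) or corrected for transcript length (0.61, adjusted p = 0.0268).

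*Dhh* (chr15:98891152-98898540, minus strand) encodes Desert hedgehog, made by Sertoli cells and by the Schwann cells of nerves. Its FPKM was 1.17, 1.07, 0.80 and 1.15 in WT-veh, and 1.41, 1.41, 2.42 and 2.67 in WT-DES. The groups did not overlap, though the lowest WT-DES samples stood just above the highest WT-veh sample. *Dhh* rose by 0.52 ± 0.21, a ratio of 1.89 (limma adjusted p = 0.0403). The call was the least secure of the 7. It was lost on leaving out any WT-veh sample or WT-DES sample 3 or 4, with an adjusted p of up to 0.120 (log2 change 0.41) without WT-DES sample 4. It was also lost in 6 of 13 other alternatives, among them quantile normalization (0.04, adjusted p = 0.844), the length correction (0.41, adjusted p = 0.0940) and no minimum on FPKM (0.52, adjusted p = 0.0504). *Dhh* overlaps *Rhebl1* on its own strand and a noncoding gene on the other, so reads could not be assigned to it with certainty. *Ptch1*, *Smo* and *Gli3* likewise overlap another annotated gene or pseudogene on their own strand. Noncoding genes lie on the other strand of *Shh*, *Gli2* and *Hhip*, and no gene overlaps *Ihh*.

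*Shh* was the most abundant ligand in every sample. It made up 65.9% ± 3.4 (SD, n = 4) of the summed FPKM of the 3 ligands in WT-veh and 79.5% ± 12.3 in WT-DES. The αERKO shares were 75.6% ± 6.7 with vehicle and 73.1% ± 7.6 with DES. In WT-DES the share ran from 69.9% to 95.7%, the highest in sample 1. The share in WT-DES thus lay above or at the top of the WT-veh range, 61.7% to 69.9%, and spread more widely than in any other group.

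*Ptch1* (chr13:63508328-63573598, minus strand) encodes the ligand receptor and is itself a classic target gene. Its FPKM was 11.35, 11.73, 10.02 and 8.28 in WT-veh, and 34.52, 33.82, 35.03 and 31.60 in WT-DES. The groups were far apart and the WT-DES samples lay close together. *Ptch1* rose by 1.62 ± 0.14, a ratio of 3.26 (limma adjusted p = 8.63e-08).

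*Smo* (chr6:29735503-29761365, plus strand), whose promoter is printed above, encodes the membrane protein that passes the signal into the cell. Its FPKM was 14.55, 16.88, 14.46 and 14.79 in WT-veh, and 34.99, 36.52, 37.88 and 34.81 in WT-DES. It was the most abundant of the 9 genes in WT-veh, and it had the smallest spread relative to its change. *Smo* rose by 1.20 ± 0.07, a ratio of 2.38 (limma adjusted p = 2.17e-09).

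*Hhip* (chr8:79965851-80058006, minus strand) encodes the membrane protein that binds Hedgehog ligands and keeps them from the receptor. Its FPKM was 3.20, 4.56, 3.55 and 3.57 in WT-veh, and 5.57, 2.42, 3.81 and 2.99 in WT-DES. WT-DES sample 1 was the highest of the 8 and WT-DES samples 2 and 4 were the lowest, so the groups overlapped fully. The log2 change was -0.04 ± 0.20 (limma adjusted p = 0.859), with a 95% interval from -0.48 to 0.39. With each sample corrected for its trend on transcript length, *Hhip* fell by 0.51 (adjusted p = 0.0147), and with quantile normalization it fell by 0.51 as well (adjusted p = 0.0433). *Hhip*, at 9074 nucleotides, has the longest transcript of the 9 genes after *Ptch1*, and the change of all genes with DES in wild type correlated with transcript length (Spearman rho 0.26 over 15047 genes, which are no independent replicates).

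*Gli1* (chr10:127329882-127341974, minus strand) encodes the activator that is itself switched on by the pathway and is widely read as a gauge of its activity. Its FPKM was 11.22, 13.24, 10.09 and 10.27 in WT-veh, and 18.91, 25.03, 30.95 and 24.14 in WT-DES. All WT-DES samples were higher, with sample 1 the lowest of them. *Gli1* rose by 1.06 ± 0.15, a ratio of 2.21 (limma adjusted p = 1.54e-05). It overlaps *Arhgap9* on the other strand, and whether reads were counted by strand is not given in the sources used here.

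*Gli2* (chr1:118834132-119053619, minus strand) encodes the main activator that acts on arrival of the signal. Its FPKM was 0.76, 0.64, 0.70 and 0.60 in WT-veh, and 5.68, 4.06, 4.35 and 4.10 in WT-DES. It was the least abundant of the 9 genes in WT-veh and had the largest ratio, 6.74, with a log2 change of 1.72 ± 0.11 (limma adjusted p = 6.02e-09). Because *Gli2* entered the test through WT-DES, it was also fitted with no minimum on FPKM, where the change was 1.72 with an adjusted p of 8.08e-09. *Gli3* (chr13:15463235-15730026, plus strand) encodes the factor that acts mostly as a repressor when no ligand is present. Its FPKM was 1.47, 1.83, 1.24 and 1.35 in WT-veh, and 3.71, 3.70, 3.81 and 3.37 in WT-DES. It rose by 0.92 ± 0.12, a ratio of 2.48 (limma adjusted p = 5.56e-06), and the WT-DES samples lay close together.

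The proportions within the pathway also shifted between the WT groups. *Gli2* was 5.11% ± 0.80 of the summed FPKM of the 3 *Gli* genes in WT-veh and 14.1% ± 4.0 in WT-DES, with no overlap between the samples. *Gli1* was 83.9% ± 0.36 of that sum in WT-veh and 74.7% ± 5.4 in WT-DES, again with no overlap. *Hhip* per *Ptch1* was 0.364 ± 0.063 in WT-veh (0.282 to 0.431) and 0.109 ± 0.038 in WT-DES (0.0716 to 0.161). These ratios compare genes within 1 sample, so a factor that scales a whole sample leaves them as they are. They are descriptions of the same FPKM, not further tests.

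**Figure D2:**
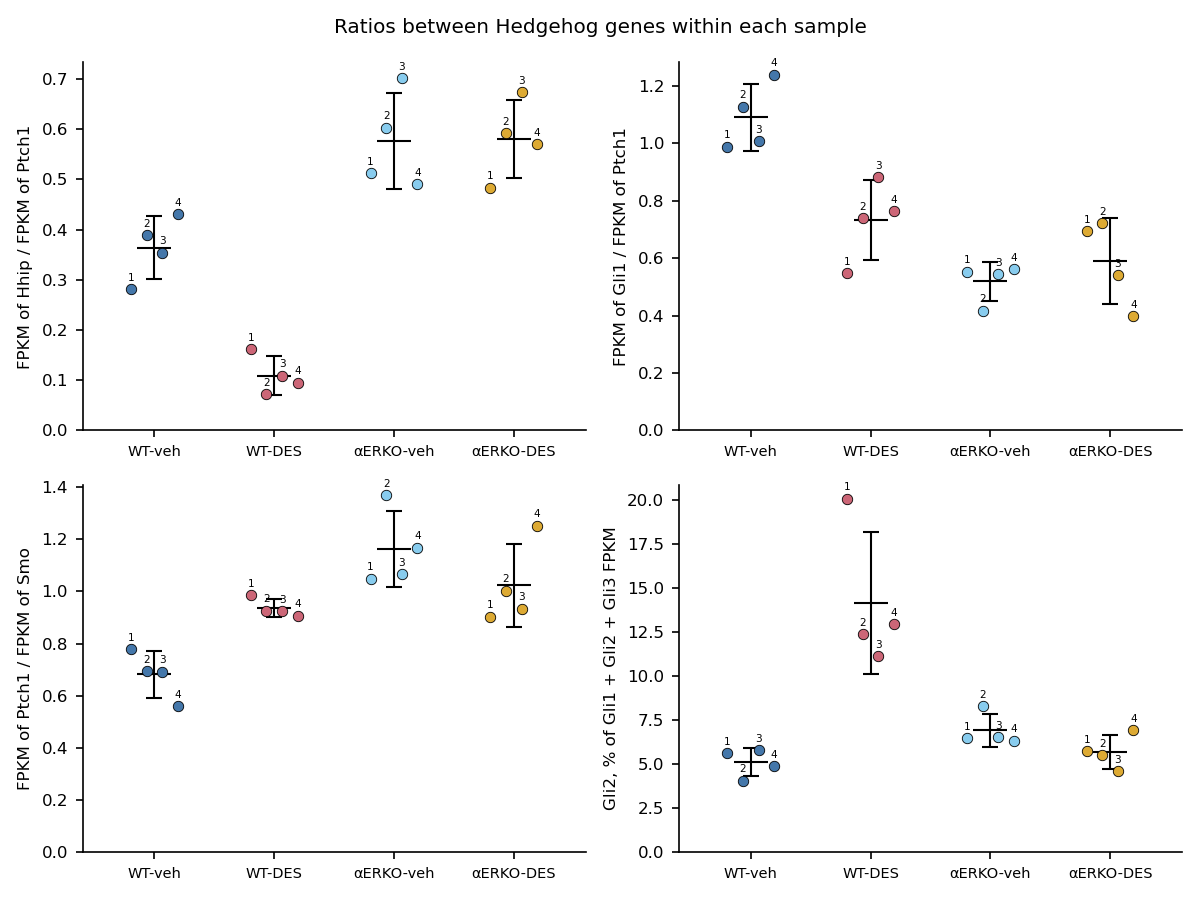
Ratios and shares of FPKM between Hedgehog genes within each sample (linear axes from 0), with the sample number above each point and bars for the mean ± SD of the 4 samples in a group. The ratio of *Hhip* to *Ptch1* is below all other samples in WT-DES (0.0716 to 0.161), and the ratio of *Gli1* to *Ptch1* is highest in WT-veh (0.989 to 1.24).

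Markers of the cell types in the SV also differed between the WT groups. Of 8 fibroblast markers 7 were higher in WT-DES, and their mean log2(FPKM + 1) was 7.62 to 7.74 there and 6.20 to 6.43 in WT-veh. Of 8 epithelium markers 5 were lower, with means of 6.72 to 7.03 against 7.33 to 7.49. All 9 leukocyte markers, all 6 endothelium markers, 6 of 8 Schwann cell markers and 5 of 6 adipose markers were higher, 5 of 8 smooth muscle markers were lower, and so were all 8 SV secretion genes and 2 of 8 skeletal muscle markers. No marker was at 0 in every sample of a group.

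Set against these markers, the Hedgehog genes fell into different patterns. *Gli1* minus the mean of the fibroblast markers, on the log2(FPKM + 1) scale, was -2.72 ± 0.18 in WT-veh and -3.03 ± 0.29 in WT-DES. For *Smo* these differences were -2.31 and -2.49, and for *Ptch1* -2.83 and -2.58, and the WT groups overlapped for each of these 3 genes. For *Gli2* the difference was -5.58 ± 0.10 in WT-veh and -5.23 ± 0.16 in WT-DES, and for *Gli3* it was -5.02 ± 0.16 and -5.48 ± 0.07, in opposite directions and both without overlap. Adding 1 to FPKM shrinks the rise of low genes such as *Gli3* (1.24 to 3.81 FPKM in wild type) and *Dhh* more than that of abundant markers. The lower *Gli3* difference in WT-DES may thus come from the scale and is not read as a pattern of its own. *Shh* minus the mean of the epithelium markers was -5.19 ± 0.09 in WT-veh and -2.66 ± 0.81 in WT-DES, with no overlap. *Hhip* minus the fibroblast markers was -4.09 ± 0.23 in WT-veh and -5.51 ± 0.36 in WT-DES, whereas *Hhip* minus the smooth muscle markers went from -5.45 ± 0.11 to -4.61 ± 0.63. *Dhh* minus the Schwann cell markers was -2.26 in WT-veh and -2.30 in WT-DES, and minus the endothelium markers it was -2.44 ± 0.03 and -3.23 ± 0.31, without overlap. Which cells made these RNAs was not measured, and the part of the markers in the changes was not tested.

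**Figure D3:**
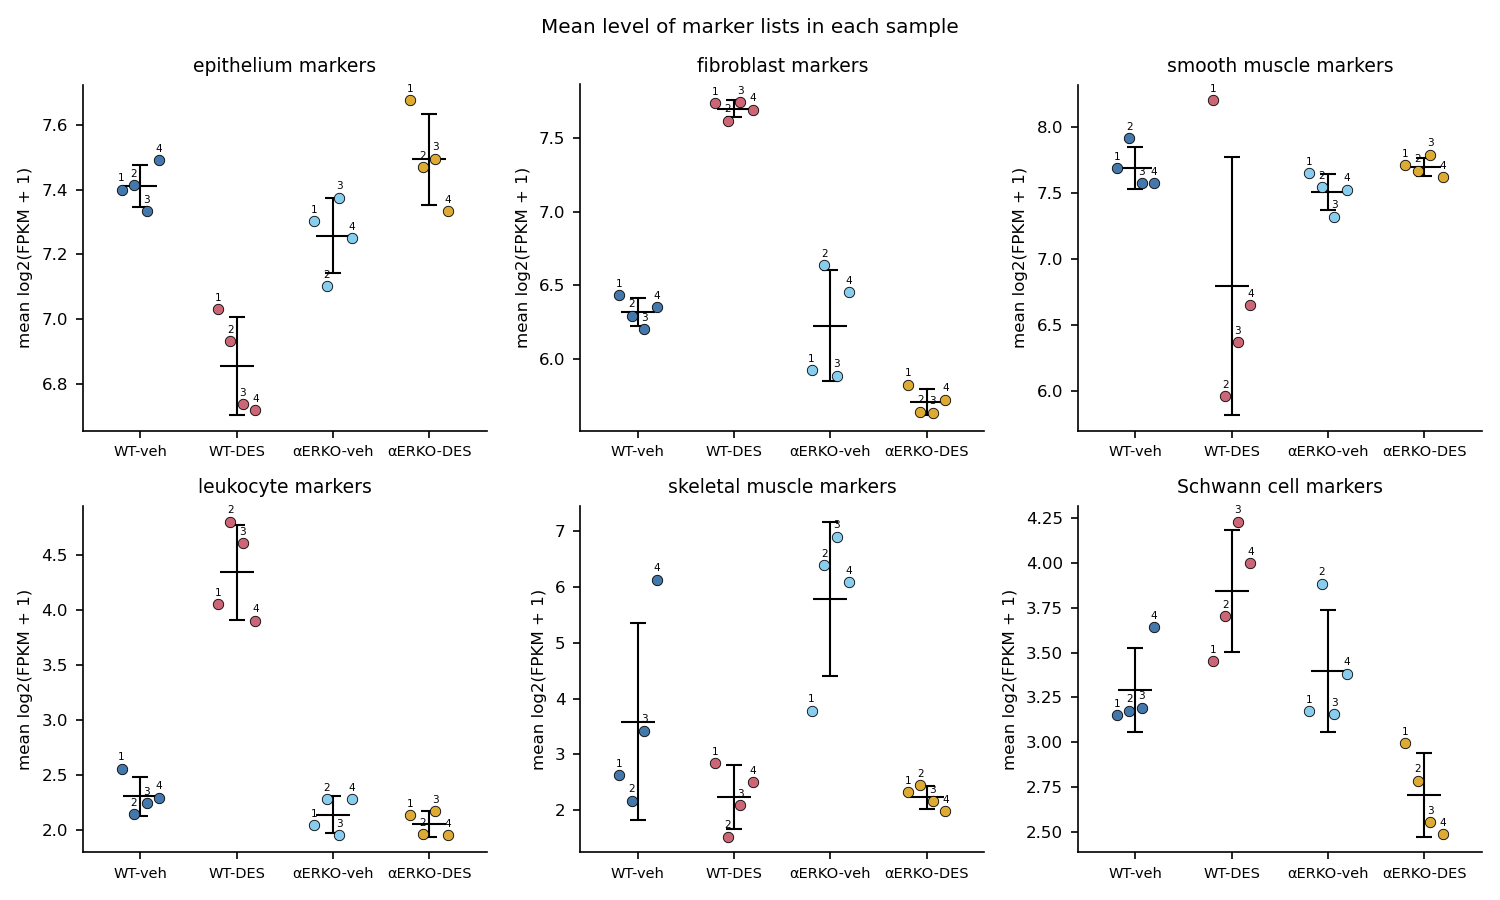
Mean log2(FPKM + 1) of 6 marker lists in each sample, with the sample number above each point and bars for the mean ± SD of each group (the axes do not start at 0). Fibroblast markers are higher in WT-DES (7.62 to 7.74) than in all other groups, WT-DES sample 1 stands apart for smooth muscle markers (8.20), and skeletal muscle markers reach 6.13 in 1 WT-veh sample and 6.91 in αERKO-veh.

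Without functional ERα, DES was followed by no called change in any of the 9 Hedgehog genes. In αERKO-DES against αERKO-veh, 0 of 9 were called by limma, 0 of 9 also with a replicate block, and 1.49% of all tested genes were called. The 2 groups overlapped for all 9 genes, whereas the groups did not overlap for 13.0% of all tested genes. All 9 fitted changes were below 0, from -0.15 to -0.62, with a median of -0.23 beside 0.016 over all genes, though with quantile normalization *Ihh* (0.08), *Gli2* (0.03) and *Gli3* (0.02) were above 0. In the same comparison 5 of 8 skeletal muscle, 3 of 6 adipose, 2 of 8 fibroblast, 2 of 8 Schwann cell and 1 of 6 endothelium markers were called lower, and changes of all genes fell with transcript length (rho -0.32 over 15047 genes). With the length correction all 9 changes were still below 0, from -0.05 to -0.65, and the part of the markers in them was not tested.

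*Shh* FPKM in αERKO was 5.30, 8.69, 9.78 and 7.32 with vehicle, and 3.50, 6.15, 4.45 and 4.62 with DES. The difference in log2 was -0.62 ± 0.32 (limma adjusted p = 0.244), with a 95% interval from -1.31 to 0.07. *Ptch1* FPKM in αERKO was 12.69, 20.15, 14.01 and 16.73 with vehicle, and 10.29, 12.26, 10.23 and 14.39 with DES. The groups overlapped through αERKO-veh samples 1 and 3, and the difference was -0.39 ± 0.14 (limma adjusted p = 0.107). *Smo* FPKM in αERKO was 12.09, 14.72, 13.13 and 14.33 with vehicle, and 11.39, 12.22, 10.95 and 11.49 with DES. Its difference was -0.22 ± 0.07 (limma adjusted p = 0.0851), and the 95% intervals of these receptor genes lay below 0 before adjustment over all genes.

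*Gli1* FPKM in αERKO was 7.02, 8.40, 7.63 and 9.40 with vehicle, and 7.15, 8.85, 5.54 and 5.74 with DES. *Gli2* FPKM in αERKO was 0.59, 0.96, 0.65 and 0.77 with vehicle, and 0.51, 0.60, 0.33 and 0.58 with DES, below 1 in all of them. *Gli3* FPKM in αERKO was 1.48, 2.19, 1.65 and 1.98 with vehicle, and 1.20, 1.39, 1.28 and 2.02 with DES. The differences of the *Gli* genes were between -0.20 and -0.23. *Hhip* FPKM in αERKO was 6.51, 12.15, 9.83 and 8.20 with vehicle, and 4.98, 7.26, 6.89 and 8.21 with DES, a difference of -0.36 ± 0.20 (limma adjusted p = 0.276). *Ihh* was between 0.39 and 1.21 and *Dhh* between 0.63 and 2.50 FPKM over both αERKO groups. With samples weighted by their fit, *Shh* (-0.43, adjusted p = 0.0356) and *Dhh* (-0.44, adjusted p = 0.0218) passed the test as lower, the only alternative to the values above that gave calls here.

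The response to DES differed between genotypes for the same 7 genes that rose in wild type. The interaction, which is the change with DES in wild type minus that in αERKO, was called for *Shh* (2.59 ± 0.46, limma adjusted p = 0.000151), *Dhh* (0.83 ± 0.30, 0.0232), *Ptch1* (2.02 ± 0.19, 5.69e-07), *Smo* (1.41 ± 0.10, 3.37e-08), *Gli1* (1.30 ± 0.21, 7.93e-05), *Gli2* (1.93 ± 0.16, 1.19e-07) and *Gli3* (1.11 ± 0.17, 3.20e-05). All 7 were above 0, where 29.6% of all tested genes were called above 0 and 56.4% in either direction. *Ihh* (0.63 ± 0.33, adjusted p = 0.0998) and *Hhip* (0.32 ± 0.29, adjusted p = 0.330) were not called. *Ihh* was called with samples weighted by their fit (0.96, adjusted p = 0.00116), equal totals without the 20 most abundant genes (0.93, 0.0308), the length correction (0.82, 0.0366) or WT-DES sample 1 left out (0.88, 0.00647), and its sign turned with quantile normalization (-0.058). Of the markers, all 8 fibroblast, 9 leukocyte, 6 endothelium and 6 adipose genes, 7 of 8 Schwann cell genes and 4 of 8 skeletal muscle genes had a called interaction above 0, with the largest median, 4.14, for adipose. Below 0 were 6 of 8 epithelium, 5 of 8 smooth muscle, all 8 SV secretion and 1 of 8 skeletal muscle genes, and the part of the markers in the interactions of the 7 genes was not tested. *Gli3* kept its sign and lost its call under quantile normalization (0.42) and with the length correction (0.54), and *Dhh* lost its call in 3 of 11 alternatives besides leaving out 1 sample, namely quantile normalization (0.12, adjusted p = 0.688), an adjusted p of at most 0.01 and the 12 samples whose skeletal muscle markers averaged below 5 (0.62, adjusted p = 0.133).

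**Figure D4:**
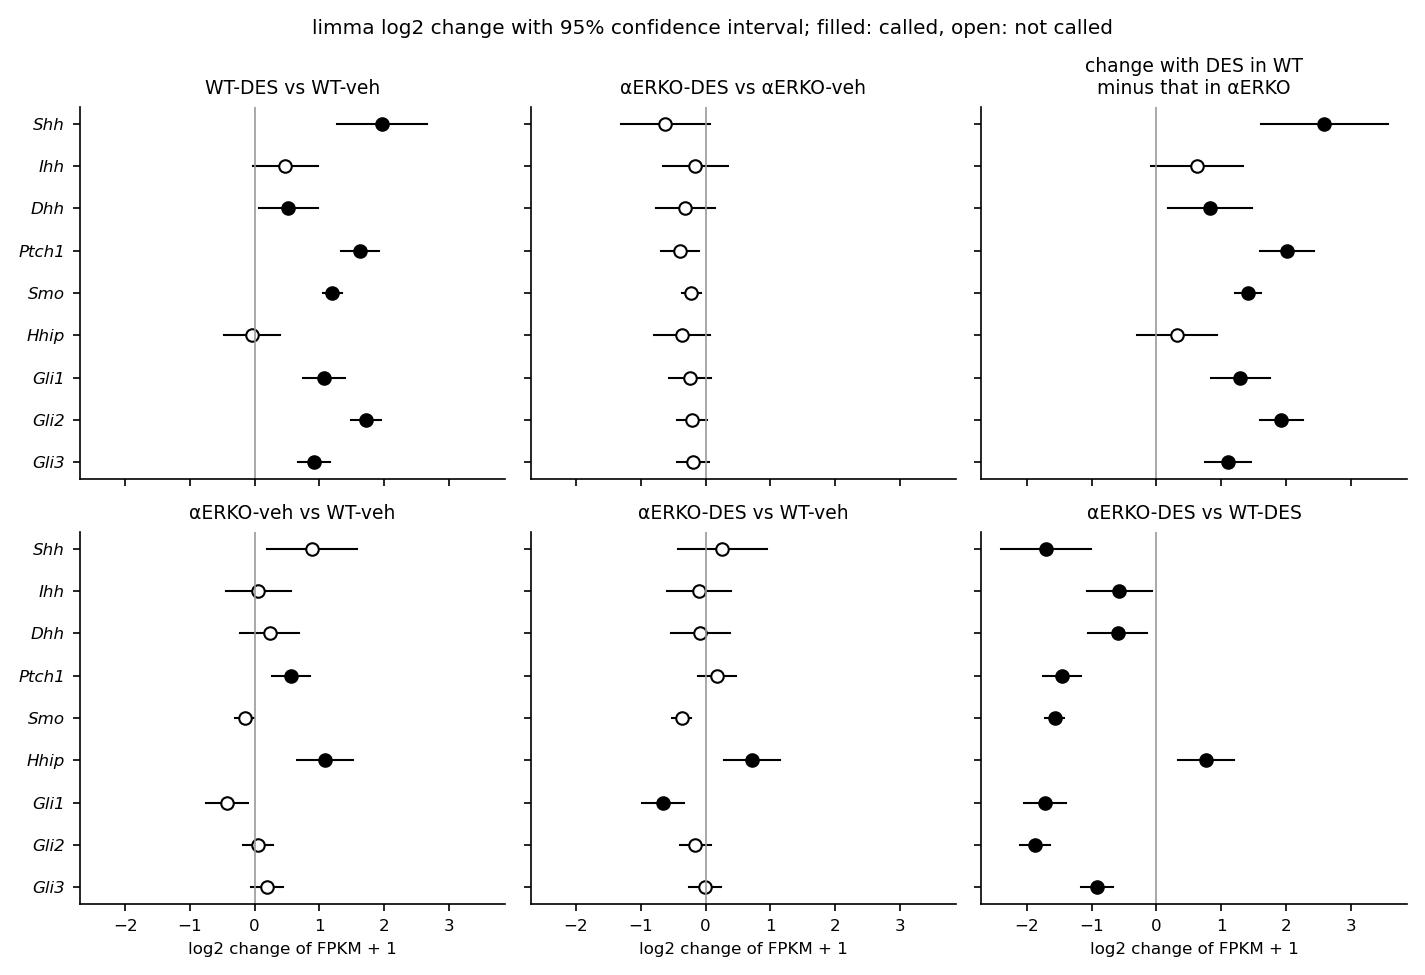
Change of each Hedgehog gene in log2(FPKM + 1) with its 95% interval from limma, in 5 comparisons and the interaction; filled points were called. In WT-DES against WT-veh 7 points are filled to the right of 0, in αERKO-DES against αERKO-veh none is, and *Hhip* is the exception at the right in αERKO-DES against WT-DES (0.76).

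Against WT-DES, αERKO-DES was called for all 9 genes, 8 lower and *Hhip* higher, in a comparison where 53.4% of all tested genes were called and 29.6% were called lower. *Gli2* differed most in ratio, 0.111 of its WT-DES mean (-1.88 ± 0.11, limma adjusted p = 1.61e-09). *Shh* was 4.40-fold lower (-1.71 ± 0.32, adjusted p = 0.000221), or a ratio of 0.362 in place of 0.228 without WT-DES sample 1. *Gli1* (-1.72), *Smo* (-1.57), *Ptch1* (-1.45) and *Gli3* (-0.92) were lower with samples that did not overlap, though *Gli3* lost its call under quantile normalization (-0.29). For 7 of the 9 genes all αERKO-DES samples were below all WT-DES samples, against 32.7% of all tested genes. In the same comparison all 8 fibroblast, 9 leukocyte, 6 endothelium and 6 adipose markers and 7 of 8 Schwann cell markers were called lower. Called higher were 6 of 8 epithelium markers, 5 of 8 smooth muscle markers, all 8 SV secretion genes and 1 of 8 skeletal muscle markers. The mean log2(FPKM + 1) of the fibroblast markers was 5.64 to 5.83 in αERKO-DES, and the part of any of these markers in the 9 changes was not tested.

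*Hhip* averaged 6.83 ± 1.36 FPKM in αERKO-DES against 3.70 ± 1.37 in WT-DES, higher by 0.76 ± 0.20 (limma adjusted p = 0.00337). The groups overlapped through WT-DES sample 1, and the call was lost with samples rescaled to equal totals without the 20 most abundant genes (0.46, adjusted p = 0.0697). *Ihh* was lower by 0.57 on the log2 scale (adjusted p = 0.0375), a call that was lost without WT-DES sample 2 (-0.34) or 4, or αERKO-DES sample 2, 3 or 4, and its sign turned with quantile normalization (0.06). It was also lost in 4 of the 12 remaining alternatives, which were a fit of these 2 groups alone (adjusted p = 0.111), the 12 samples with low skeletal muscle markers (0.0703), the ratio taken from log2(FPKM + 1) and an adjusted p of at most 0.01. *Dhh* (-0.60, adjusted p = 0.0203) lost its call without WT-DES sample 3 or 4 or αERKO-DES sample 4, and its sign with quantile normalization (0.05). Both comparisons with WT-DES share its 4 samples, so their results are not independent.

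Without DES, *Hhip* and *Ptch1* were higher in αERKO SVs than in wild-type SVs. In αERKO-veh against WT-veh 2 of the 9 genes were called, both higher, against 7.12% of all tested genes called and 4.50% called higher. *Hhip* was 9.17 ± 2.40 FPKM in αERKO-veh and 3.72 ± 0.59 in WT-veh, a ratio of 2.47 (1.09 ± 0.20 on the log2 scale, limma adjusted p = 0.00607). *Ptch1* was 15.9 ± 3.3 and 10.3 ± 1.6 FPKM, a ratio of 1.54 (0.57 ± 0.14, adjusted p = 0.0121). All 4 αERKO-veh samples were above all 4 WT-veh samples for both genes.

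*Shh* was 7.77 ± 1.93 FPKM in αERKO-veh and 3.68 ± 0.36 in WT-veh, again without overlap, but missed the threshold (0.88 ± 0.32, limma adjusted p = 0.0579). The spread is estimated over all 16 samples, and without WT-DES sample 1 the same log2 change had an adjusted p of 0.0065. The call was also made without WT-DES sample 2 (adjusted p = 0.0489) and without αERKO-veh sample 1 (adjusted p = 0.0389). With all samples kept it was made in 5 of 14 other alternatives, namely samples weighted by their fit (adjusted p = 0.000184), a fit of these 2 groups alone (0.0179), equal totals without the 20 most abundant genes (0.0287), a pseudocount of 0.1 (0.0405) and a minimum FPKM above 5 (0.0494). *Gli1* had the opposite sign to its fellow target genes, at 8.11 ± 1.03 FPKM in αERKO-veh and 11.2 ± 1.4 in WT-veh, and did not pass the test (-0.42 ± 0.15, adjusted p = 0.0524). The samples of *Gli1* did not overlap, as was the case in either direction for 29.7% of all tested genes. *Smo* (-0.15), *Gli2* (0.05), *Gli3* (0.19), *Ihh* (0.06) and *Dhh* (0.23) were not called.

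Skeletal muscle markers also differed between these groups. Their mean log2(FPKM + 1) was 3.79, 6.39, 6.91 and 6.08 in αERKO-veh, and 2.63, 2.17, 3.42 and 6.13 in WT-veh, and 4 of 8 were called higher. WT-veh sample 4, with the mean of 6.13, had *Hhip* at 3.57 FPKM and the lowest *Ptch1* of its group, 8.28. αERKO-veh sample 1, with the mean of 3.79, had the lowest *Hhip* (6.51) and *Ptch1* (12.69) of its group. Of 6 endothelium markers 2 were called higher (means of 3.49 to 4.26 in αERKO-veh and 3.32 to 3.54 in WT-veh), and 1 of 9 leukocyte markers was called lower (1.95 to 2.28 and 2.14 to 2.55). The part of these markers in the values was not tested. Over the 12 samples of the series with a mean below 5, which keep 1 αERKO-veh sample and 3 WT-veh samples, *Hhip* differed by 0.67 (adjusted p = 0.740) and *Ptch1* by 0.19 (adjusted p = 0.882), where the lone αERKO-veh sample was taken to vary like the other groups and 7 genes in all were called. Changes in this comparison also rose with transcript length (rho 0.55 over 15047 genes). With the length correction *Hhip* kept its call (0.76, adjusted p = 0.018) and *Ptch1*, whose longest transcript has 10383 nucleotides, lost it (0.21, adjusted p = 0.0882). The call of *Ptch1* was lost by its ratio without WT-veh sample 4 (0.47) or αERKO-veh sample 2 (0.45).

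The ratio of *Gli1* to *Ptch1* was highest in WT-veh. It was 1.09 ± 0.12 in WT-veh (0.989 to 1.24) and 0.734 ± 0.139 in WT-DES (0.548 to 0.884). The αERKO values were 0.519 ± 0.069 with vehicle (0.417 to 0.562) and 0.589 ± 0.150 with DES (0.399 to 0.722). WT-veh lay above all other samples, while WT-DES overlapped both αERKO groups. *Ptch1* per *Smo* was lowest in WT-veh, 0.682 ± 0.091, and 1.16 ± 0.15 in αERKO-veh, with no overlap between them.

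αERKO-DES SVs differed from WT-veh SVs by a called change in 2 of the 9 Hedgehog genes. *Hhip* was called higher (0.72 ± 0.20, ratio 1.84, limma adjusted p = 0.0433) and *Gli1* lower (-0.65 ± 0.15, ratio 1.64, adjusted p = 0.0198), where 3.18% of all tested genes were called. For *Hhip* every αERKO-DES sample was above every WT-veh sample, and for *Gli1* and *Smo* every one was below, as 21.0% of all tested genes did not overlap in either direction. *Smo* differed by -0.37 ± 0.07 (adjusted p = 0.007) but by a ratio of only 1.32. The *Hhip* call was lost on leaving out any 1 of WT-veh samples 1, 3 and 4, WT-DES samples 3 and 4, αERKO-veh sample 4 and αERKO-DES samples 2, 3 and 4, with changes from 0.64 to 0.72. The *Gli1* call was lost without αERKO-DES sample 3 (-0.58) or 4 (-0.59). Over the 12 samples with low skeletal muscle markers neither passed the test, with changes close to those above (*Hhip* 0.71, adjusted p = 0.119, and *Gli1* -0.69, adjusted p = 0.0748), and 208 genes in all were called there in place of 508. With all samples kept, *Hhip* lost its call in 6 more alternatives, namely the replicate block (adjusted p = 0.0732), no minimum on FPKM (0.0672), the length correction (0.0599), quantile normalization (0.0589), equal totals without the 20 most abundant genes (0.0525) and an adjusted p of at most 0.01. *Gli1* lost its call under quantile normalization (adjusted p = 0.0505), equal totals (0.0543) and an adjusted p of at most 0.01. Over the 14 alternatives besides leaving out 1 sample the *Hhip* change stayed between 0.56 and 0.85 and that of *Gli1* between -0.73 and -0.51. Changes of all genes in this comparison rose with transcript length (rho 0.40 over 15047 genes). Of 8 fibroblast markers 4 were called lower in αERKO-DES (5.64 to 5.83 against 6.20 to 6.43 in WT-veh), as were 4 of 6 adipose, 1 of 9 leukocyte and 1 of 8 Schwann cell markers. The part of these markers in the *Gli1* value was not tested.

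Across the 4 groups, *Shh*, *Ptch1*, *Smo*, *Gli1*, *Gli2*, *Gli3*, *Dhh* and *Ihh* all had their highest mean in WT-DES, and *Hhip* had its highest mean in αERKO-veh. For *Ptch1* the order of means was WT-DES 33.7, αERKO-veh 15.9, αERKO-DES 11.8 and WT-veh 10.3, where the last pair overlapped and did not differ by the test (0.17, adjusted p = 0.455). For *Gli1* the order was WT-DES 24.8, WT-veh 11.2, αERKO-veh 8.11 and αERKO-DES 6.82, where the αERKO groups overlapped. For *Hhip* it was αERKO-veh 9.17, αERKO-DES 6.83, WT-veh 3.72 and WT-DES 3.70, where the αERKO groups overlapped with each other, and so did the WT groups.

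The wider pathway was described with 5 lists by role, also chosen with earlier results of these data known. They hold 46 genes, of which 43 were tested. In WT-DES against WT-veh 25 of them were called, 22 higher and 3 lower, with a median change of 0.59. The share called in either direction, 58.1%, was near the 52.7% of all tested genes, whereas 51.2% were called higher beside 28.9% of all tested genes. *Scube3*, *Lrp2* and *Foxl1* were too low to be tested, and 2 of the 43 entered the test through WT-DES alone. Without those 2, 20 of 41 were called higher (48.8%) and 3 lower.

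Genes for making and releasing ligand included 3 of 5 tested that rose. None fell, so 60.0% were called beside 52.7% of all tested genes, of which 28.9% were higher. *Scube1*, which encodes a secreted protein that helps release ligand, rose by 1.05 ± 0.17 from 1.08 to 3.40 FPKM. *Disp1*, for the transporter that exports lipid-bearing ligand, rose by 0.89 ± 0.12, and *Hhat*, for the enzyme that adds palmitate to it, rose by 0.78 ± 0.12. *Disp2* was 0.69 to 3.34 FPKM in WT-DES and 2.03 to 2.89 in WT-veh and was not called, but rose in αERKO-veh to between 4.84 and 8.72 (1.00 ± 0.26, limma adjusted p = 0.0152). Skeletal muscle markers rose in the same αERKO-veh samples (4 of 8 called), and their part in the *Disp2* value was not tested. Over the 12 samples with low skeletal muscle markers, which keep 1 αERKO-veh sample and where 7 genes in all were called, *Disp2* differed by 0.82 (adjusted p = 0.757), and with the length correction by 0.77 (adjusted p = 0.0564).

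Of the co-receptors and relatives of the receptor, 4 of 5 tested rose (80.0%), or 3 of 4 without the gene tested through WT-DES alone, beside 28.9% of all tested genes. *Gpc3*, for a cell-surface glypican that binds ligand and limits the signal, was 7.39, 4.97, 5.80 and 9.03 FPKM in WT-veh, and 48.36, 55.70, 55.38 and 56.14 in WT-DES. It had the largest change in log2(FPKM + 1) of the 43 genes tested, 2.84 ± 0.23 (limma adjusted p = 6.01e-08). In αERKO it went the other way, from 3.88 to 9.30 FPKM with vehicle down to 1.62 to 3.53 with DES, and fell by 1.05 ± 0.23 (adjusted p = 0.0365). Over the 12 samples with low skeletal muscle markers, which keep 1 αERKO-veh sample, *Gpc3* differed by -0.54 in this comparison, and with the length correction by -1.11. The markers that were lower in the same αERKO comparison are given above, with fibroblast means of 5.89 to 6.64 with vehicle and 5.64 to 5.83 with DES, and their part in this fall or in that of *Foxf2* was not tested. The co-receptor genes *Gas1* and *Cdon* rose by 1.01 and 0.72, and *Boc*, for another co-receptor, changed by 0.32 and was not called.

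Of 16 intracellular regulators 6 rose and 1 fell, so 43.8% were called beside 52.7% of all tested genes, and 37.5% were higher beside 28.9%. *Evc* and *Evc2*, for the partner proteins that hold active SMO at the base of the cilium, rose by 1.35 ± 0.11 and 1.33 ± 0.09. *Evc2* was 4.41 to 5.08 FPKM in WT-veh and 12.69 to 14.44 in WT-DES. *Kif7*, for a ciliary kinesin that works on the GLI proteins, rose by 1.08, and *Gpr161*, for a ciliary receptor that keeps the pathway off, rose by 0.98. Of the others, named here after their values were seen, *Sufu* (0.80) and *Btrc* (0.60), for negative regulators that hold or degrade GLI proteins, rose as well, and *Arrb2*, for β-arrestin 2, fell by 0.77.

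Of 8 genes of primary cilium transport 2 rose, *Arl13b* (0.73) and *Rpgrip1l* (0.59), and *Ift172* fell by 0.76, with 5 not called. These shares, 37.5% called and 25.0% higher, were below those of all tested genes. Of the downstream target genes 7 of 9 tested rose and 1 fell, or 6 of 8 and 1 without *Mycn*, for a transcription factor of growing cells, which was tested only because of its WT-DES level (0.60 to 1.42 FPKM, against 0.18 to 0.46 in WT-veh). That is 77.8% higher, or 75.0% without *Mycn*, beside 28.9% of all tested genes. *Foxf1*, for a mesenchymal forkhead factor, was 1.56, 1.62, 1.68 and 2.16 FPKM in WT-veh, and 40.11, 6.01, 8.78 and 7.97 in WT-DES. It rose by 2.20 ± 0.39 (limma adjusted p = 0.000119), with a ratio of 8.96, or 4.32 without WT-DES sample 1, the sample that was also highest for *Shh*. *Bcl2*, for a survival protein, rose by 1.36, and *Bmp4*, for a secreted mesenchymal signal, by 1.24. *Ccnd1*, for cyclin D1, went against them, at 158 to 186 FPKM in WT-veh and 55.5 to 80.0 in WT-DES, and fell by 1.33 ± 0.11 (adjusted p = 7.13e-08). Like the other target genes listed, *Ccnd1* has regulators outside the pathway, and whether the pathway drove any of these changes was not tested.

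**Figure D5:**
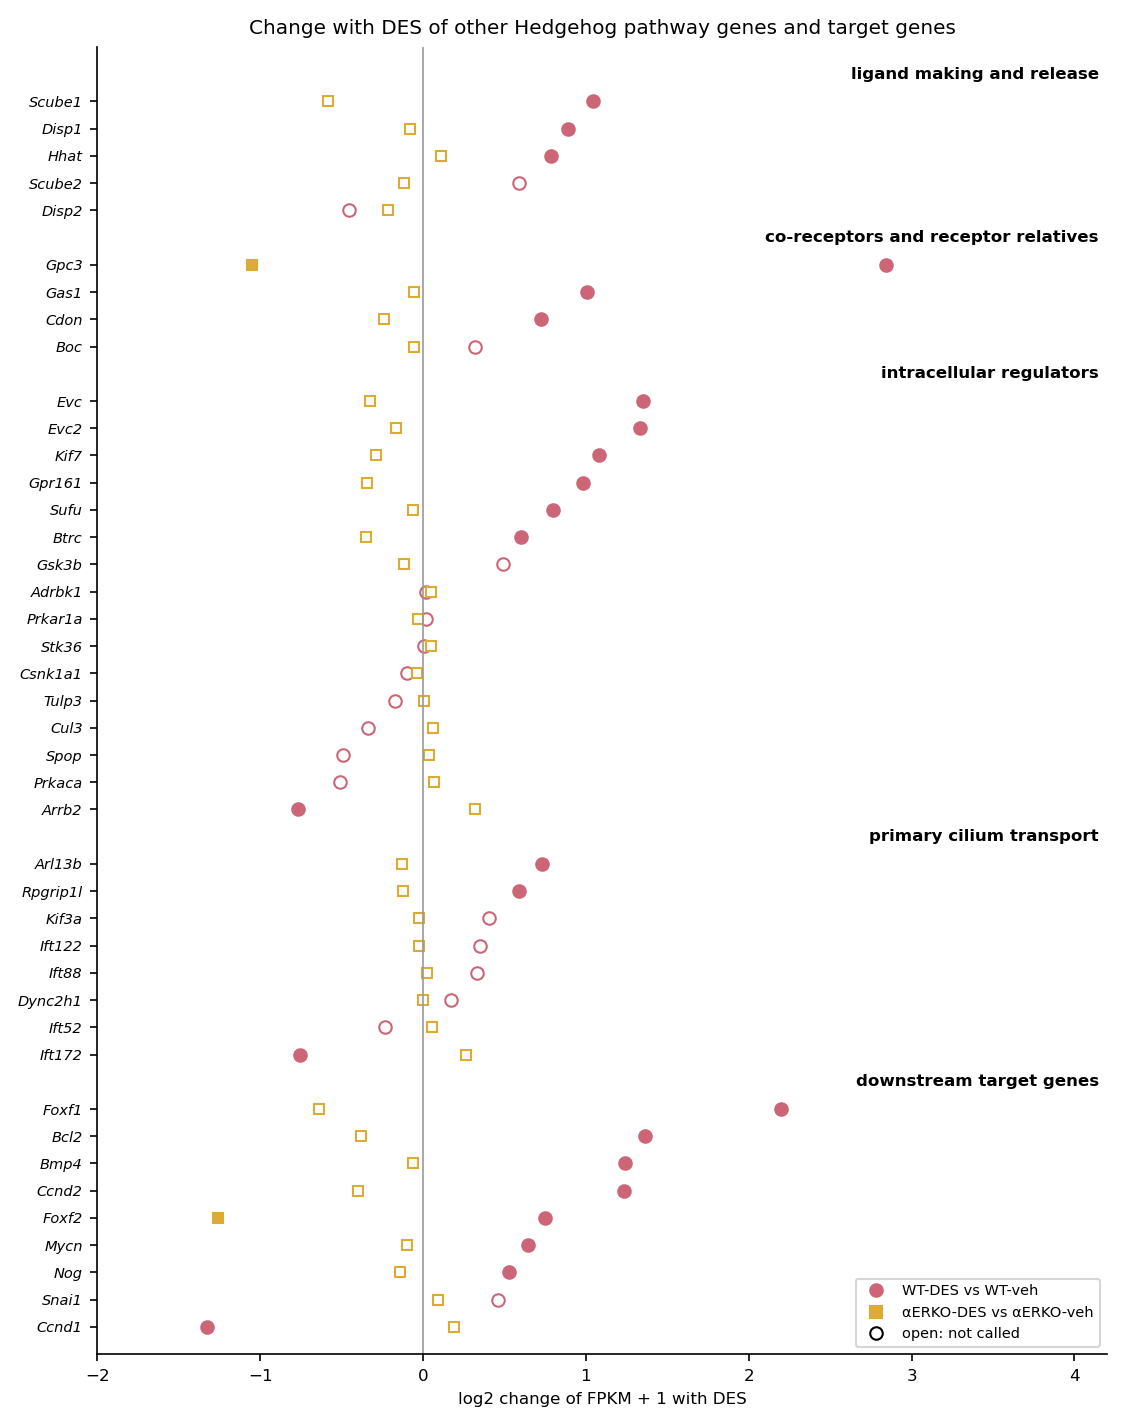
Change with DES in log2(FPKM + 1) of 42 tested pathway and target genes, ordered within 5 lists, in wild type (circles) and in αERKO (squares); filled symbols were called. The circles are spread from -1.33 (*Ccnd1*) to 2.84 (*Gpc3*), while only the squares of *Gpc3* (-1.05) and *Foxf2* (-1.26) are filled.

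In αERKO-DES against αERKO-veh only *Gpc3* and the forkhead gene *Foxf2* of the 43 were called, both lower, which is 4.65% beside 1.49% of all tested genes. *Foxf2* changed by -1.26 ± 0.26 (limma adjusted p = 0.0351). Over the 12 samples with low skeletal muscle markers, which keep 1 αERKO-veh sample, *Foxf2* differed by -0.95, and with the length correction by -1.31. The interaction was called for 26 of the 43 (60.5%), 23 above 0 and 3 below, near the 56.4% of all tested genes, but 53.5% were above 0 beside 29.6% of all tested genes. The 3 below were *Ccnd1*, *Arrb2* and *Ift172*. In αERKO-DES against WT-DES 26 were called (60.5%), 22 lower and 4 higher, near the 53.4% of all tested genes, with 51.2% lower beside 29.6% of all tested genes. Without the 2 genes tested through WT-DES alone, 21 of 41 were above 0 for the interaction and 20 of 41 were lower in αERKO-DES against WT-DES. Outside the comparisons with WT-DES, 1 gene was called in αERKO-veh against WT-veh, *Disp2*, which is 2.33% beside 7.12% of all tested genes. In αERKO-DES against WT-veh 2 were called, *Gpc3* (-1.19, adjusted p = 0.00891) and *Evc* (-0.53, adjusted p = 0.0151), or 4.65% beside 3.18% of all tested genes.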

How the data were processed

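Total RNA of 16 seminal vesicle samples was sequenced as paired reads of 126 nt. Per the labels and the study's methods, the authors kept reads of average quality over 20, aligned these against mm10 using TopHat2 2.0.4 and computed FPKM with Cufflinks 2.0.2, and the deposited table holds these FPKM values to 2 decimals. The annotation, any scaling between libraries, strand and read depth are not given in the sources used here, so no counting intervals are given.

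Samples were grouped by their titles. log2(FPKM + 1) was fitted with limma 3.58.1 (R 4.3.3) with a mean per group over all 16 samples, eBayes with trend, two-sided, and Benjamini-Hochberg adjustment over the 15988 genes that reached a group mean over 1 FPKM, and the fit was tested on simulated data. Calls took the study's thresholds (adjusted p at most 0.05, ratio of mean FPKM at least 1.5, mean above 1), and for the interaction a difference of at least that ratio on the log2 scale. Values and figures were made in Python 3.11.15 (pandas 2.3.3, matplotlib 3.10.9). Gene positions and transcript lengths came from GENCODE M21 (GRCm38), by symbol, and promoters from RefSeq.

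The 9 genes, the 5 lists of other pathway genes and the 9 marker lists were chosen with earlier results of these data known. Named besides the 9 genes were *Esr1*, up to 4 called genes per list with the largest change in WT-DES against WT-veh, listed genes called in comparisons without WT-DES, and the 3 genes nearest to *Shh*, *Gli1* and *Ptch1* in root mean square difference of centred log2(FPKM + 1). Alternatives were another pseudocount (0.1), no minimum or a minimum of 5, other thresholds, scalings, weights, variance models and sample sets, a replicate block, a transcript length correction and leaving out each sample. Sample numbers in the labels are not said to pair samples: over 24 pairs of the same number in different groups, deviations from group means correlated with r from -0.21 to 0.28 (median -0.016), and 3 of 16 samples correlated best with their own number. No 2 columns were identical. Genes that these rules name but the text does not are not reported here.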

Additional observations from a re-analysis of the deposited data

Results flagged for a closer look

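The change with DES differed between wild type and αERKO by the limma interaction for 7 Hedgehog genes, each with a larger change in wild type: *Shh* (difference 2.59 on the log2 scale, adjusted p = 0.000151), *Ptch1* (2.02, 5.69e-07), *Gli2* (1.93, 1.19e-07), *Smo* (1.41, 3.37e-08), *Gli1* (1.30, 7.93e-05), *Gli3* (1.11, 3.20e-05) and *Dhh* (0.83, 0.0232). Of all tested genes 56.4% were called for the interaction, 29.6% above 0, and *Gli2* was tested only through WT-DES. All 4 WT-DES samples were above all 4 WT-veh samples for each of the 7, as for 32.7% of all tested genes. Fibroblast, leukocyte, endothelium, adipose and Schwann cell markers had an interaction of the same sign (8 of 8, 9 of 9, 6 of 6, 6 of 6 and 7 of 8 called). Skeletal muscle markers had it in 4 of 8, and epithelium (6 of 8), smooth muscle (5 of 8) and SV secretion (8 of 8) markers had the opposite sign. Whether those markers account for any of it was not tested.

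The highest *Smo* value in WT-veh, 16.88 FPKM in sample 2, stood apart from the other 3 (14.46 to 14.79), with 0.864 of the group's range between it and its nearest neighbour. It was the only one of 36 groups of 4 values looked at that did so, where chance alone would give about 1 in 20. It left *Smo* below all WT-DES samples, and the WT-DES change without it was 1.25.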

How the results depend on the processing

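Precision is limited by 4 samples per group, by pools in WT-DES and by FPKM of unknown depth with 2 decimals, which is coarse for *Ihh*, *Dhh* and *Gli2*. Of 1578 recomputed changes of the 9 genes, 864 of them leaving out a sample, 1459 kept direction and side of the threshold, 61 lost a call, 21 gained one and 37 changed sign. Except where stated, the cause was not tested. A minimum FPKM above 5 tested fewer genes and called 4 of the 9 in WT-DES against WT-veh, 5 in αERKO-DES against WT-DES and 4 for the interaction, and 16 and 17 of the other pathway genes in WT-DES against WT-veh and for the interaction. In αERKO-veh against WT-veh 1 gene was called with the ratio taken from log2(FPKM + 1), 1 at an adjusted p of at most 0.01 and 1 with the length correction. Sample weights called 2 in αERKO-DES against αERKO-veh. In αERKO-DES against WT-veh 1 was called without a minimum, 1 with the length correction, 0 with quantile normalization, 0 with equal totals without the top 20 genes and 0 at an adjusted p of at most 0.01. The 12 samples with skeletal muscle markers below 5, an alternative chosen after seeing the data, gave 0 calls in αERKO-veh and 0 in αERKO-DES, each against WT-veh, 7 in WT-DES against WT-veh, 8 in αERKO-DES against WT-DES and 6 for the interaction, and 26 and 21 of the other pathway genes.

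Leaving out 1 sample at a time gave 6 to 8 calls in WT-DES against WT-veh, 1 to 3 in αERKO-veh against WT-veh, 0 to 0 in αERKO-DES against αERKO-veh, 7 to 9 in αERKO-DES against WT-DES, 0 to 2 in αERKO-DES against WT-veh and 7 to 8 for the interaction, and for the other pathway genes 24 to 27 in WT-DES against WT-veh and 25 to 27 for the interaction. With a replicate block 6, 2, 0, 9, 1 and 7 of the 9 genes were called in the same order, with *Dhh* lost in WT-DES (adjusted p = 0.0511) and *Hhip* in αERKO-DES against WT-veh (0.0732), and 25 and 26 of the other pathway genes. The sample numbers were not found to pair the samples.

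Equal totals without the top 20 genes moved the median change of all genes by 0.37 in WT-DES against WT-veh, 0.14 in αERKO-veh against WT-veh, -0.10 in αERKO-DES against αERKO-veh, -0.33 in αERKO-DES against WT-DES and 0.49 for the interaction. The share of calls that were higher went from 54.7% to 78.6% in WT-DES against WT-veh, and relative to its shift *Smo*, *Ptch1*, *Shh*, *Gli1* and *Gli2* were still above the median. *Hhip* was called for the interaction there (0.77).

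The changes of sign were all in values not called, apart from *Ihh* (0.056) and *Dhh* (0.055) in αERKO-DES against WT-DES with quantile normalization. That normalization also turned *Ihh* in αERKO-veh against WT-veh (-0.0026), αERKO-DES against αERKO-veh (0.084), αERKO-DES against WT-veh (0.081) and the interaction (-0.058), *Dhh* in αERKO-DES against WT-veh (0.098), *Gli2* in αERKO-veh (-0.0040) and αERKO-DES (0.031) against WT-veh and in αERKO-DES against αERKO-veh (0.035), *Gli3* in αERKO-DES against αERKO-veh (0.020) and WT-veh (0.15), and the *Hhip* interaction (-0.24). The length correction turned *Ptch1* in αERKO-DES against WT-veh (-0.0079), *Gli2* (-0.18) and *Gli3* (-0.10) in αERKO-veh against WT-veh and the *Hhip* interaction (-0.30). Equal totals turned *Smo* in αERKO-veh (0.018), *Gli3* in αERKO-DES (0.025) and *Hhip* in WT-DES (0.30), each against WT-veh. Median-ratio scaling turned *Gli3* (0.0036) and sample weights *Dhh* (0.032) in αERKO-DES against WT-veh. The 12 samples turned *Gli2* (-0.096) and *Gli3* (-0.013) in αERKO-veh against WT-veh, *Hhip* in αERKO-DES against αERKO-veh (0.044) and the *Hhip* interaction (-0.099). Leaving out 1 sample gave ranges across 0 for *Ihh* in αERKO-veh (-0.0088 to 0.15) and αERKO-DES (-0.17 to 0.0079), *Dhh* in αERKO-DES (-0.15 to 0.0016), *Gli2* in αERKO-veh (-0.0048 to 0.096), *Gli3* in αERKO-DES (-0.11 to 0.061) and *Hhip* in WT-DES (-0.22 to 0.095), each against WT-veh.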

Other observations

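The genes whose levels moved most like those of *Shh*, *Gli1* and *Ptch1* over the 16 samples were looked up among all tested genes, by the root mean square difference of log2(FPKM + 1) after centring each gene on its mean. Nearest to *Ptch1* were *Bach1*, for a transcriptional repressor of haem-responsive genes, at a difference of 0.0881 and *Pkd2*, for the ciliary channel polycystin 2, at 0.099. *Pkd2* averaged 11.0 FPKM after vehicle and 31.1 after DES in wild type, and 15.3 and 11.5 in αERKO, the order of groups seen for *Ptch1*. Nearest to *Gli1* were *Evc*, the pathway gene named in the results, at 0.164, *Cdkn1c*, for a cyclin-dependent kinase inhibitor, at 0.166, and *Ccdc8* at 0.172. *Cdkn1c* averaged 9.36 and 22.4 in wild type and 6.88 and 6.38 in αERKO, lower in both αERKO groups than in WT-veh as for *Gli1*.

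Nearest to *Shh* were *Ermp1* at 0.192, *Dock8*, for a regulator of small GTPases best known from leukocytes, at 0.247, and *Wnt2b*, for a secreted Wnt ligand, at 0.251. *Wnt2b* averaged 1.00 FPKM after vehicle and 4.92 after DES in wild type, and 1.96 and 0.87 in αERKO. These likenesses were chosen by their values, rest on 4 groups that differ in many genes, and describe the samples only.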
